A study of Homo sapiens with 15 samples.

Results

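Tumors grown from HCT116 cells carrying MOAP-1 with a lysine to arginine change at residue 264 (K264R) were compared with tumors carrying the empty pCDNA3 vector. All samples labelled K264R and all samples labelled Vector were taken, which gave 3 tumors and 3 tumors, or 6 of the 15 samples of the series. The other 9 were 3 tumors each with wild type MOAP-1, with the K278R mutant and with RASSF1A. HCT116 is a human colorectal carcinoma cell line, and MOAP-1 (modulator of apoptosis 1) is a protein that binds the pro-apoptotic protein BAX. In every group, the transfected human cells were grown as xenografts in athymic nude mice, which lack mature T cells, and the tumors were excised at day 35. The cells were transiently transfected pools and not selected clones, so the presence of the construct at excision rests on the array itself. The labels number 3 replicates for each construct. The p-values below rest on the spread between replicate tumors of a construct, pooled over all 15 samples.

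MOAP-1 is a short lived protein that relays death receptor signals to mitochondria. RASSF1A recruited to the receptor complex opens MOAP-1, and opened MOAP-1 binds BAX, which then inserts into the outer mitochondrial membrane and allows cytochrome c to leave. MOAP-1 is turned over by the ubiquitin-proteasome pathway, in which the anaphase-promoting complex takes part. The ligase TRIM39 inhibits the ubiquitination of MOAP-1 by that complex. An arginine keeps the positive charge of a lysine but cannot accept ubiquitin on its side chain.

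Each tumor was hybridized to 1 single-color oligonucleotide array. A level below is the log2 signal of a probe minus the 75th percentile of its array, so that 0 is the signal at that percentile. Probes were kept where every K264R tumor, or every vector tumor, gave a signal well above background, which left 30035 of 34127 probes for 24625 genes, each read at its brightest probe. A gene was called, and is said to have risen or fallen, at an adjusted p below 0.05 (limma, Benjamini-Hochberg over all probes) when it also changed 1.5-fold or more. The median change of all genes was -0.06 on the log2 scale. The 3 K264R arrays were on 1 slide and the 3 vector arrays on another, and the scanner software was run on their images on different days, so slide and construct cannot be told apart. The K264R slide held no array of another construct. The K264R arrays were also brighter, with 75th percentile signals from 1176 to 1402 against 631 to 768. The K264R arrays correlated with each other at 0.993 to 0.996 over all probes, and with the vector arrays at 0.969 to 0.984.

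The transcript of the transfected gene was higher in the K264R tumors. The MOAP1 probe (A_23_P205389, chromosome 14) read 0.11, 0.46 and 0.25 in the K264R tumors and -0.18, -0.53 and -0.13 in those with vector, so the groups did not overlap. They differed by 0.55 (SE 0.14, adjusted p = 0.00887, limma), or 1.47-fold, which was below the 1.5-fold set for a call. The probe cannot tell the mutant transcript from the endogenous one. It stood 0.86 above vector in the wild type MOAP-1 tumors and 0.74 above vector in the K278R tumors, and the difference of K264R from wild type MOAP-1 was -0.31 (SE 0.14, adjusted p = 0.451, limma). RASSF1, the gene of the adaptor that opens MOAP-1, read 1.90, 1.64 and 1.69 against 1.72, 1.52 and 1.81, and the groups overlapped.

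Of the 13 genes on the route from the death receptor through MOAP-1 and RASSF1A to BAX, 2 rose and 1 fell, where 8.18% of all genes rose and 10.5% fell. BAX read 1.38, 1.28 and 1.58 in the K264R tumors and 0.86, 0.60 and 0.90 in the vector tumors, a rise of 0.63 (SE 0.15, adjusted p = 0.00486, limma). BCL2, the anti-apoptotic partner that holds BAX in check, read 0.17, 0.25 and 0.23 against -0.36, -0.46 and -0.40, a rise of 0.62 (SE 0.12, adjusted p = 0.00163, limma). Thus the effector and its inhibitor rose by similar amounts. At a second probe of each gene the changes were -0.17 for BAX and -0.08 for BCL2, and without K264R replicate 3 or vector replicate 2 the BAX rise was below 1.5-fold. TRIM39, which stabilizes MOAP-1, read -1.31, -1.13 and -1.33 against -0.02, -0.06 and -0.67, a fall of 1.00 (SE 0.22, adjusted p = 0.00372, limma), while another TRIM39 probe stood at 0.06. The remaining members were not called, with FADD at -0.35, TRAF2 at -0.36 and BCL2L1 at 0.35, and TNFRSF1A, TRADD and RIPK1 all changed by less than 1.1-fold in size.

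**Figure D1:**
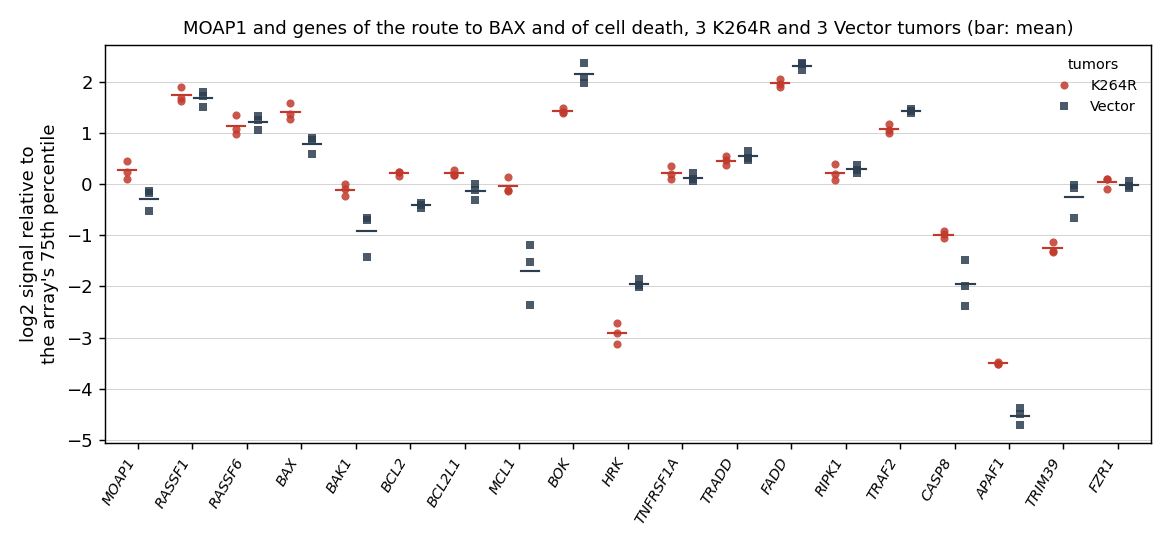
Log2 signal relative to the 75th percentile of the array for MOAP1 and genes of the BAX route and of cell death, with 1 point for each of the 3 K264R and 3 Vector tumors and a bar at the mean of each group. The MOAP1, BAX and BCL2 points of the K264R tumors all lie above those of the vector tumors, and the TRIM39 points lie below.

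Within the BCL2 family, 4 of 16 genes rose (25.0%) and 2 fell (12.5%), where 8.18% and 10.5% of all genes did, with a median of -0.07 that became 0.06 under quantile normalization. The largest rise was MCL1, a short lived anti-apoptotic member, which read 0.13, -0.11 and -0.14 in the K264R tumors and -1.53, -2.37 and -1.18 with vector, a change of 1.65 (SE 0.28, adjusted p = 0.000667, limma), or 3.15-fold. BAK1, a pore forming relative of BAX, rose by 0.82, whereas HRK, a BH3-only member, fell by 0.97 and BOK, another pore former, fell by 0.71. The 4 rises thus held 2 anti-apoptotic members (BCL2 and MCL1) and 2 pore formers (BAX and BAK1), and both falls were of pro-apoptotic members.

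Of 22 death receptor and caspase genes, 5 rose (22.7%, against 8.18% of all genes) and 0 fell. APAF1, the scaffold of the apoptosome, read -3.48, -3.51 and -3.51 against -4.38, -4.70 and -4.50, a change of 1.02 (SE 0.11, adjusted p = 8.48e-05, limma). This probe was dim, and its change was -0.20 after normexp background correction. CASP8, the initiator caspase of death receptors, rose by 0.96. CYCS, which encodes cytochrome c, rose by 0.70, HTRA2, a mitochondrial protease released with it, by 0.77, and CASP6, an effector caspase, by 0.64. The list median was 0.13. It was 0.00 after normexp correction of all spots, when 0 genes rose. With the spots of extreme local background left out it was 0.07, when 3 rose. Relative to the median of all genes, these 3 values were 0.19, 0.28 and 0.33.

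Across all genes, 2014 rose and 2597 fell in the K264R tumors, together 18.7% of the 24625 tested (19.7% of probes). The median rise was 0.87, or 1.83-fold, and the median fall was -0.86, or 1.81-fold. Changes of more than 4-fold were more often falls, with 100 genes lower and 28 higher. In 98.4% of the called genes the 3 K264R tumors did not overlap the 3 vector tumors, but this was so in 52.7% of all genes. The direction depended on brightness, since in the brightest of 5 equal groups of genes 3.59% rose and 18.3% fell, with a median of -0.20, while in the middle group 11.3% rose and 7.23% fell, with a median of 0.00. Whether the difference in array brightness had a part in this was not tested.

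**Figure D2:**
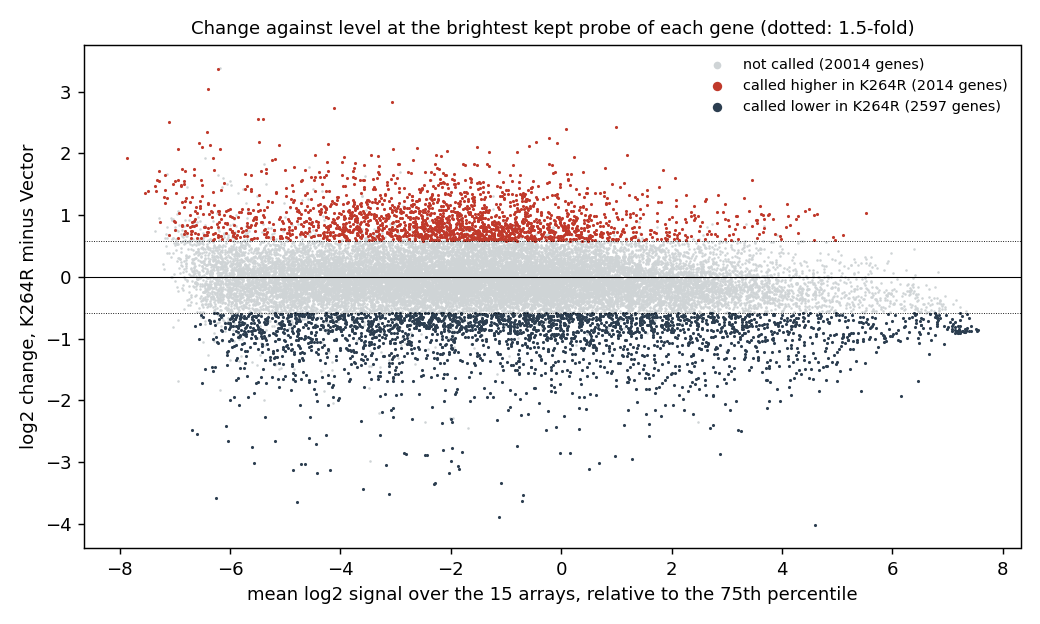
Log2 change (K264R minus Vector) against the mean log2 signal over the 15 arrays, relative to the 75th percentile, with 1 dot for each of the 24625 genes and the called genes in color. The dotted lines mark 1.5-fold, and the 2597 falls extend further from 0 than the 2014 rises, with 100 against 28 genes past 4-fold.

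Among the largest rises of named genes, PRDX3, a mitochondrial peroxiredoxin that removes hydrogen peroxide, read 2.21, 2.24 and 2.19 in the K264R tumors and -0.33, -0.86 and 0.55 in the vector tumors, a 5.37-fold rise (log2 2.42, SE 0.28, adjusted p = 9.76e-05, limma). GDI2, which extracts Rab GTPases from membranes, read 1.21, 0.84 and 1.08 against -1.18, -1.11 and -1.10. RAB11A, the GTPase of recycling endosomes, read 1.17, 0.55 and 1.12 against -1.38, -1.31 and -1.23. Each of these groups was separated by more than 1 log2 unit. TCP1, a subunit of the chaperonin that folds tubulin and actin, rose by 2.39 at its brightest probe but stood at 0.00 at another. PRKDC, the catalytic subunit of DNA-dependent protein kinase, rose by 2.18, and by 2.36 at a second probe.

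Of the other large rises, HERC6 and RBMX2 had signal well above background in each of the 6 tumors. HERC6, a ligase of the interferon response, rose by 2.82, although another of its probes fell by 0.97. ENC1 rose by 2.74, SMIM13 by 2.57, MTM1, the phosphatase of myotubular myopathy, by 2.56, VPS53, a tethering subunit at the Golgi, by 2.34, TRAPPC6B, a subunit of another tethering complex, by 2.18 and RBMX2 by 2.16. In the vector tumors MTM1 and VPS53 were well above background in 1 of 3, and ENC1, SMIM13 and TRAPPC6B in 2 of 3. After normexp correction with the spots of extreme local background left out, MTM1 (-0.10), VPS53 (-0.32) and TRAPPC6B (-0.09) were below 0, so the size of these rises depends on the background subtraction.

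Among the largest falls, the probe of SNORD3B-1, a copy of the U3 small nucleolar RNA needed for ribosomal RNA cleavage, read 2.40, 2.48 and 2.46 in the K264R tumors and 6.95, 6.24 and 6.22 with vector. This was a change of -4.03 (SE 0.33, adjusted p = 3.83e-05, limma), a 16.3-fold fall, and a second probe stood at -1.60. U3 copies are nearly identical, so the copy measured is uncertain. ACKR5, an atypical chemokine receptor, read -3.15, -3.08 and -3.17 against 0.54, 0.54 and 1.17, a fall of 3.88. ALDH1L2, the mitochondrial enzyme that oxidizes 10-formyltetrahydrofolate, read -2.78, -2.82 and -2.87 against 0.65, 0.79 and 0.12, a fall of 3.34. For all of these the 3 K264R tumors lay within 0.1 of each other, more than 2 log2 units below every vector tumor. LRRC2 fell by 3.11, REP15, a Rab15 binding protein, by 3.12, PIK3R5, a regulatory subunit of phosphoinositide 3-kinase gamma, by 3.36 and BICC1, an RNA-binding protein, by 3.18. SLC51B, a subunit of the basolateral bile acid exporter, fell by 3.52, and GUCY2C, the guanylin receptor of intestinal epithelium, by 3.18, the latter well above background in 2 of 3 K264R tumors. OR52E8, an olfactory receptor, JAKMIP2 and MAGEB6 fell by 3.65, 3.14 and 3.13.

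Most of these falls moved with slide and scan day among the RASSF1A tumors, of which replicate 3 shared both with the vector arrays and replicates 1 and 2 were on another slide scanned on another day. SLC51B read -5.36 and -5.14 in RASSF1A replicates 1 and 2 but -1.30 in replicate 3, against -1.35, -1.07 and -0.87 in the vector tumors. OR52E8 read -8.19, -6.67 and -2.86 and PIK3R5 -3.96, -2.70 and -0.72 in RASSF1A replicates 1, 2 and 3. Of the 12 largest falls, 10 were below every vector tumor in both RASSF1A tumors of the other slide and nearer to vector in replicate 3 (ACKR5, OR52E8, SLC51B, PIK3R5, ALDH1L2, BICC1, JAKMIP2, MAGEB6, REP15 and LRRC2). The median difference from vector over the 12 was -2.11 in replicates 1 and 2 and -0.21 in replicate 3. Among the 12 largest rises, the medians were 0.08 and 0.23. SNORD3B-1 read 5.92, 6.64 and 6.31 in the RASSF1A tumors, against 6.95, 6.24 and 6.22 with vector. The K264R and vector arrays were scanned on the same day but lay on different slides, and the part of slide in these falls was not tested.

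**Figure D3:**
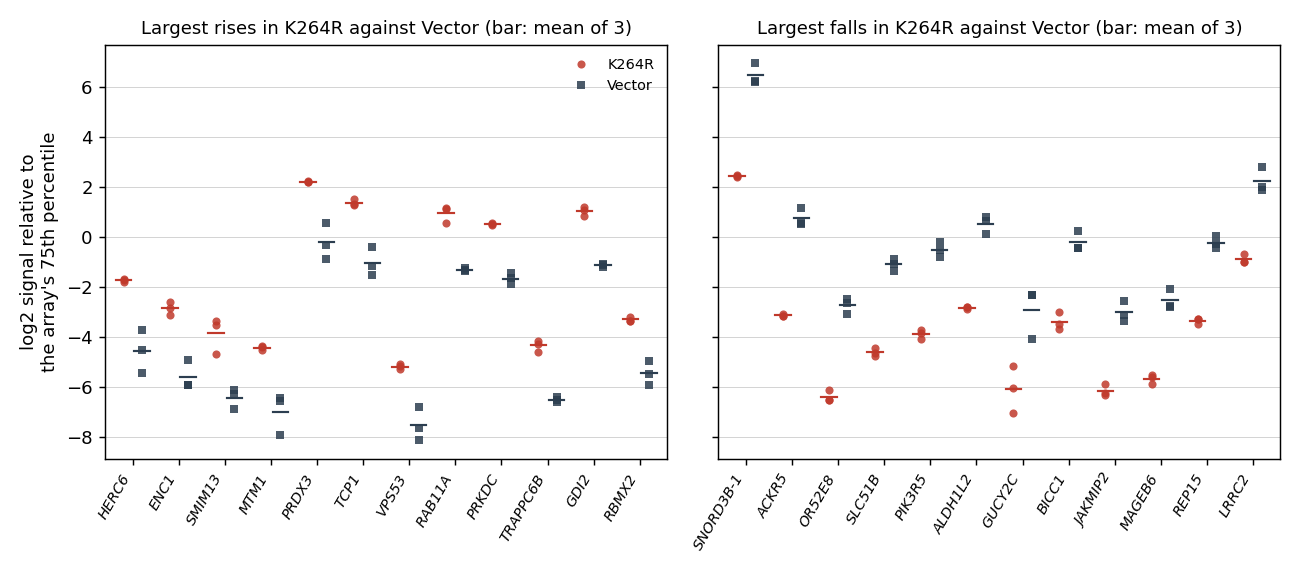
Log2 signal relative to the 75th percentile of the array for the 12 largest named rises and the 12 largest named falls, with 1 point for each tumor and a bar at the mean of 3. The K264R points of SNORD3B-1 lie between 2.40 and 2.48 and its vector points between 6.22 and 6.95.

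In the sterol synthesis list, 9 of 19 genes rose against vector and 5 of 19 were higher in K264R than in K278R. Cells make cholesterol from acetyl-CoA through mevalonate, and the SREBP transcription factors drive these genes when membrane sterol is low. The 9 rises were 47.4% of the list, against 8.18% of all genes, and 0 fell, with a median of 0.45 that ranged from 0.47 to 0.64 under the other scalings. HMGCS1, which makes hydroxymethylglutaryl-CoA, read 1.52, 1.14 and 1.56 in the K264R tumors and -0.36, -0.68 and -0.55 in the vector tumors, a 3.83-fold rise (log2 1.94, SE 0.21, adjusted p = 7.6e-05, limma). INSIG1, the membrane protein that retains SREBP and is itself an SREBP target, read 1.14, 1.04 and 1.18 against -0.10, 0.04 and 0.00, a rise of 1.14 (SE 0.13, adjusted p = 9.54e-05, limma). For neither gene did the groups overlap. Along the later steps, MVD rose by 0.98, IDI1 by 0.60, FDFT1 by 0.66 and SC5D, which was dim, by 1.08. SREBF2, the gene of the main SREBP of this pathway, stood at 1.12, 1.24 and 1.17 against 1.17, 0.98 and 1.16, and SQLE was not called (adjusted p = 0.0537, limma).

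The 250 bases upstream of the start sites of HMGCS1 and INSIG1 are shown because both genes were called against vector and against K278R. They were taken from RefSeq (GRCh38.p14), HMGCS1 from chr5:43313413-43313662 on the minus strand and INSIG1 from chr7:155297628-155297877 on the plus strand, 5′ to 3′, with capitals at each CCAAT box (CCAAT, searched on both strands).
HMGCS1: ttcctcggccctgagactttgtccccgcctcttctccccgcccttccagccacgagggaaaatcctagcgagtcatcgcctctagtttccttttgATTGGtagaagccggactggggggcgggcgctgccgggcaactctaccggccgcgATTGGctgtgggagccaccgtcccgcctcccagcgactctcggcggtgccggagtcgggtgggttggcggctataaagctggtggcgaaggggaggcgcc
INSIG1: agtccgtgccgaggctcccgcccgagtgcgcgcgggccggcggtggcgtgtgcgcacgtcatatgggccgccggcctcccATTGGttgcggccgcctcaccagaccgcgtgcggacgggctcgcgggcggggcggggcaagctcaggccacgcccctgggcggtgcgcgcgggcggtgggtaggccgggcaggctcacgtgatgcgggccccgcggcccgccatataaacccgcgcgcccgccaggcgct
The CCAAT box, bound by NF-Y, lay in 9 of the 13 sterol promoters matched in the table (69.2%) and in 33.0% of all 27305 promoters. The 9-letter sterol regulatory element TCACNCCAC was found in 1 of the 13, that of SREBF2, and in 0.875% of all promoters.

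In the tumors with the other constructs, HMGCS1 read 0.78, 0.50 and 0.64 with wild type MOAP-1, -0.69, -0.48 and 0.29 with K278R and 0.11, -0.18 and -0.05 with RASSF1A. All K264R tumors were thus above all tumors of the other constructs for this gene. K264R exceeded K278R by 1.70 for HMGCS1 (SE 0.21, adjusted p = 0.00715), by 1.12 for INSIG1 (adjusted p = 0.00669) and by 0.78 for FDFT1 (adjusted p = 0.0243, all limma). In all, 5 of the 19 genes were called in this contrast (2 to 7 over the alternative analyses, with 2 without K264R replicate 1 and 3 without K264R replicate 2, K264R replicate 3 or K278R replicate 1), where 0.609% of all genes were called between K264R and K278R. INSIG1 was called in 10 of 10 alternative analyses, 6 of which left out 1 array, HMGCS1 in 9 of 10 and FDFT1 in 6 of 10. K264R exceeded wild type MOAP-1 by 0.77 for HMGCS1 (SE 0.21, adjusted p = 0.324, limma) and 0 of the 19 genes were called in that contrast, with a median difference of 0.35. All constructs were set against the same vector arrays, and the list medians against vector were 0.17 for wild type MOAP-1, -0.02 for K278R and 0.13 for RASSF1A.

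**Figure D4:**
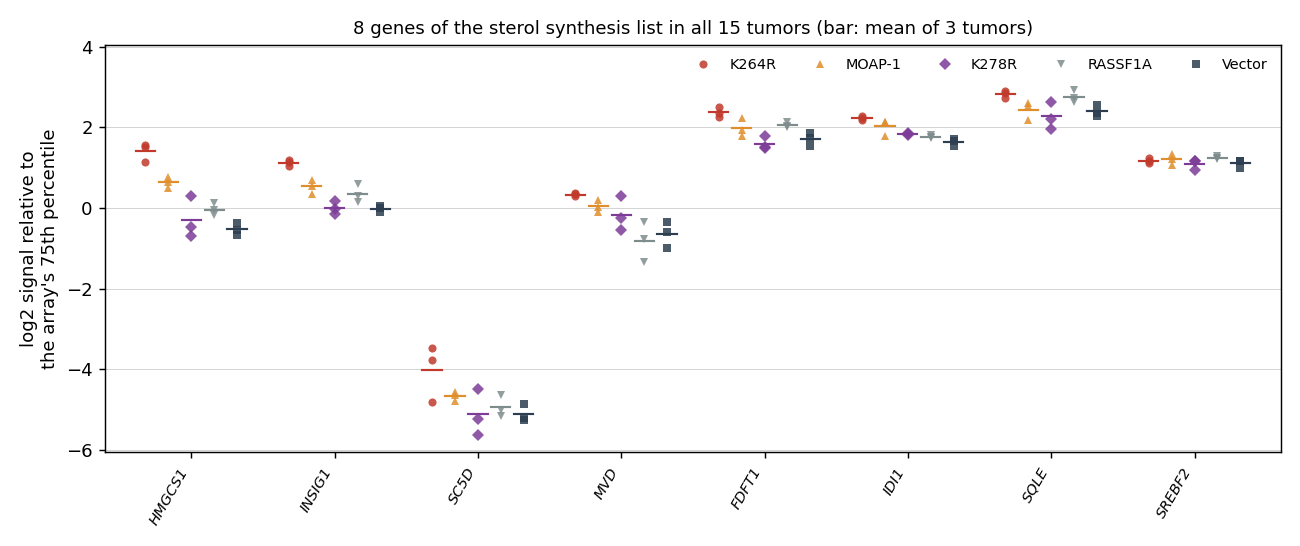
Log2 signal relative to the 75th percentile of the array for 8 genes of the sterol synthesis list in all 15 tumors, with 1 point for each tumor, a color for each construct and a bar at the mean of 3 tumors. HMGCS1 lies between 1.14 and 1.56 in the K264R tumors and at or below 0.78 in every other tumor.

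Of 23 genes of mitosis, 9 rose (39.1%, against 8.18% of all genes) and 0 fell, with a median of 0.46 that stayed between 0.36 and 0.52 under the other scalings. TOP2A, the topoisomerase that decatenates chromosomes, read -0.36, -0.57 and -0.35 in the K264R tumors and -2.64, -2.53 and -2.44 in the vector tumors, a 4.32-fold rise (log2 2.11, SE 0.26, adjusted p = 0.00012, limma). KIF20A, a kinesin of the cytokinetic midzone, read -0.79, -0.61 and -0.75 against -2.10, -2.55 and -1.83, a rise of 1.45 (SE 0.17, adjusted p = 9.91e-05, limma). Both genes were separated by more than 1 log2 unit. The kinases TTK, AURKB and AURKA rose by 1.28, 1.28 and 1.00, BUB1, a kinase of the spindle checkpoint, by 0.76, CCNA2 (cyclin A) by 0.98, TPX2, which activates AURKA, by 0.91 and FOXM1, a transcription factor of these genes, by 0.83. MKI67 and CCNB1 (cyclin B), also used as marks of cycling cells, were not called (-0.29 and -0.20, adjusted p = 0.085 and 0.208, limma).

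The promoters of TOP2A (chr17:40417897-40418146, minus strand) and KIF20A (chr5:138178862-138179111, plus strand) are shown as the mitotic genes with the largest rises, from RefSeq GRCh38.p14, 5′ to 3′, with capitals at CCAAT boxes on either strand.
TOP2A: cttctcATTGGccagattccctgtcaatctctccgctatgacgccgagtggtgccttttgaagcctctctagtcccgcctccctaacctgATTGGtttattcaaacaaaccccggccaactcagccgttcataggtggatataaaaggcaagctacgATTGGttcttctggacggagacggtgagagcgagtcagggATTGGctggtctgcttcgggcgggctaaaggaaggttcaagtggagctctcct
KIF20A: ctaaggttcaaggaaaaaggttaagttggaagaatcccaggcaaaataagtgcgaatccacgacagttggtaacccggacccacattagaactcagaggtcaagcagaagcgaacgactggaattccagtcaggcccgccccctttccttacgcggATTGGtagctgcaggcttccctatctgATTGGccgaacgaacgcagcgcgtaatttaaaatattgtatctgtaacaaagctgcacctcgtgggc
The TOP2A promoter held 4 matches and that of KIF20A 2. A CCAAT box lay in 15 of the 18 matched mitotic promoters (83.3%), in 5 of 5 of those whose genes rose, and in 33.0% of all promoters. It was as frequent in promoters of the replication-dependent histones described below, with 47 of 56 (83.9%), and lay in 19 of the 27 whose genes fell (70.4%).

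DNA replication genes rose in 7 of 30 cases (23.3%, against 8.18% of all genes) with 0 falls and a median of 0.33. RRM2, the ribonucleotide reductase subunit that limits the supply of deoxynucleotides, read 2.21, 2.22 and 1.98 against 0.14, -0.21 and 0.57, a 3.91-fold rise (log2 1.97, SE 0.19, adjusted p = 5.88e-05, limma). The flap nuclease FEN1 rose by 1.05, the clamp loader subunits RFC2 and RFC3 by 0.89 and 0.61, the clamp PCNA by 0.69, GINS2 by 0.66 and the helicase subunit MCM4 by 0.60. Among 26 genes of the DNA damage response 7 rose (26.9%) and 2 fell (7.69%), where 8.18% and 10.5% of all genes did, with a median of 0.25. PRKDC read 0.50, 0.58 and 0.47 against -1.45, -1.65 and -1.89, a 4.53-fold rise (SE of the log2 change 0.29, adjusted p = 0.000173, limma). XRCC5, which encodes the Ku80 subunit that recruits it to DNA ends, read 2.19, 2.27 and 2.34 against 1.22, 1.16 and 1.31, a rise of 1.04. NHEJ1 rose by 1.05 at a dim probe (-0.05 after normexp correction) and the ligase LIG4 by 0.71. NBN rose by 0.97, PARP3 by 0.96 and the checkpoint kinase CHEK1 by 0.66, whereas MRE11, the partner of NBN, fell by 0.59 and the mismatch repair gene MSH3 fell by 0.59.

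Of 61 replication-dependent histone genes, 30 fell (49.2%, against 10.5% of all genes) and 1 rose, with a median of -0.62. Relative to the median of all genes this was -0.56, and it was -0.23 after normexp correction of all spots, when 9 fell, and -0.31 with trimmed spots, when 30 fell. Of the 14 H4 genes 13 fell, with a class median of -1.24, and 4 of 4 linker H1 genes fell, with a median of -0.87. Of the others, 7 of 14 H2A, 5 of 17 H2B and 1 of 12 H3 genes fell, and the classes were not tested against each other. In the RASSF1A tumors, the median difference of the called histones from vector was 0.15 in replicates 1 and 2 and 0.16 in replicate 3, which was on the slide of the vector arrays. H4C12 read -0.23, -0.40 and -0.10 in the K264R tumors and 2.90, 2.77 and 2.44 in the vector tumors, a 7.73-fold fall (log2 -2.95, SE 0.16, adjusted p = 2.25e-06, limma), and a second probe stood at -1.90. H4C7 read -3.94, -4.00 and -3.74 against -1.45, -1.66 and -1.67, a fall of 2.30. H4C11 fell by 2.26 and H3C15 by 1.71, while H3C11 rose by 0.87. Histone copies are similar in sequence, so signal at one probe may come from several copies.

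The promoters of H4C12 (chr6:27831561-27831810, minus strand) and H4C7 (chr6:26246997-26247246, minus strand) are shown as the histone genes with the largest falls, from RefSeq GRCh38.p14, 5′ to 3′, with capitals at TATA boxes (TATAA on either strand).
H4C12: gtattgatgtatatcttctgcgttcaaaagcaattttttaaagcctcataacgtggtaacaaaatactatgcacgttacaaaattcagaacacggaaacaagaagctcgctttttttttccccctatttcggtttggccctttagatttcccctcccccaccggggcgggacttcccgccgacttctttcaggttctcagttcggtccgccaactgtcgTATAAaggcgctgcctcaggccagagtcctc
H4C7: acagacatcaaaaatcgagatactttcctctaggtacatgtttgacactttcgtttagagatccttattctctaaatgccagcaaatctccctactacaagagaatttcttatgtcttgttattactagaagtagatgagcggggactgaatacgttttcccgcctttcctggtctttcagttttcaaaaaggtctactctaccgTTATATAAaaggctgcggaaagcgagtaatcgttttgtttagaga
The H4C12 promoter held 1 match, starting 31 bases before the start site, and the H4C7 promoter 2 overlapping matches on opposite strands. TATAA lay in 52 of 56 matched histone promoters (92.9%), in 25 of the 27 whose genes fell, and in 19.6% of all promoters.

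Of 31 proteasome subunits 9 rose (29.0%, against 8.18% of all genes) and 0 fell, with a median of 0.39, and of 0.44 to 0.56 under the other scalings. PSMC5, an ATPase of the regulatory particle, read 1.04, 1.08 and 0.90 in the K264R tumors and -0.61, -1.32 and -0.03 in the vector tumors, a 3.16-fold rise (log2 1.66, SE 0.36, adjusted p = 0.00315, limma). PSMD11, a scaffold subunit, read 1.19, 1.08 and 1.02 against -0.03, -0.54 and -0.19, a rise of 1.35. By class, 4 of 6 ATPases rose (PSMC5, PSMC3 by 1.15, PSMC4 by 1.06 and PSMC2 by 0.61), as did 4 of 11 other regulatory subunits, 1 of 7 beta subunits (PSMB5, the chymotrypsin-like site, by 1.26) and 0 of 7 alpha subunits. In RASSF1A replicates 1 and 2, on the other slide, the 9 subunits that rose had a median difference from vector of -0.76. It was 0.05 in replicate 3, and the part of slide was not tested. The same medians were -0.49 and -0.01 for called heat shock genes, -0.42 and 0.16 for the anaphase-promoting complex and -0.40 and -0.06 for the BCL2 family. They were -0.34 and -0.01 for the respiratory chain, -0.29 and 0.07 for death receptors and caspases and -0.19 and 0.18 for mitosis. For sterol synthesis they were 0.29 and 0.27, and for the DNA damage response 0.04 and 0.07. In the anaphase-promoting complex, 3 of 18 rose (16.7%) and 0 fell, ANAPC7 by 1.14, CDC23 by 0.63 and the activator CDC20 by 0.60. FZR1, the other activator, which acts on MOAP-1, was not called (adjusted p = 0.713, limma).

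Of 74 cytosolic ribosomal protein genes, 22 fell (29.7%) and 1 rose (1.35%), with a median of -0.44. Of all genes 10.5% fell and 8.18% rose, and in the brightest of the 5 equal groups 18.3% fell and 3.59% rose. Under quantile normalization 0 ribosomal protein genes fell, 3 rose and the median was 0.07. The direction of this list thus depended on the scaling. RPL13 read 6.72, 6.75 and 6.52 against 7.67, 7.63 and 7.37 and RPL19 read 6.88, 6.94 and 6.69 against 7.79, 7.83 and 7.55, among the brightest probes of the array. RPS3 rose by 1.28 (adjusted p = 0.0334, limma), with vector tumors spread from 2.04 to 3.58. In the respiratory chain 6 of 29 rose (20.7%) and 1 fell (3.45%), with a median of -0.17 that was 0.09 under quantile normalization. ATP5F1B, the catalytic subunit of ATP synthase, read 2.85, 2.96 and 2.82 against 1.31, 0.80 and 1.72, a rise of 1.60. NDUFA9 rose by 1.67, ATP5F1C by 0.95, COX4I1 by 0.80 and ATP5F1A by 0.64, and COX6C fell by 0.62. Of 19 glycolysis genes LDHA (1.18) and ENO2 (1.11) rose, whereas PFKL, the liver form of phosphofructokinase, fell by 2.15, with K264R tumors at 1.48, 2.13 and 1.93 and vector tumors at 4.01, 4.76 and 3.23.

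Interferon response genes rose in 7 of 26 cases (26.9%, against 8.18% of all genes) with 0 falls and a median of 0.41, which ranged from 0.36 to 0.52 under the other scalings. IFIT3, an antiviral protein induced by interferon, read 0.04, -0.13 and 0.47 against -0.98, -2.09 and -0.59, a rise of 1.35 (SE 0.44, adjusted p = 0.0305, limma). OAS1, an oligoadenylate synthetase that activates RNase L, read 0.28, 0.29 and 0.38 against -1.0, -1.37 and -0.56, a rise of 1.29 (SE 0.25, adjusted p = 0.00175, limma). Neither gene overlapped between the groups, and in both vector replicate 2 was the lowest. OAS3 rose by 1.06, HERC5 by 0.74, USP18 by 0.73, OASL by 0.68 and IFI44L by 0.67. IFIT3 was no longer called without K264R replicate 1, K264R replicate 3 or vector replicate 2, and leaving out single tumors left 3 to 10 members called. Under the other scalings 1 to 10 members were called, with 1 after normexp correction of all spots.

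HERC6, described above, was not in this list. The IFIT3 promoter (chr10:89327747-89327996, plus strand, RefSeq GRCh38.p14) is shown as that of the list member with the largest rise, 5′ to 3′, with capitals at interferon-stimulated response elements (GAAA, any 2 bases and GAAA again, on either strand).
IFIT3: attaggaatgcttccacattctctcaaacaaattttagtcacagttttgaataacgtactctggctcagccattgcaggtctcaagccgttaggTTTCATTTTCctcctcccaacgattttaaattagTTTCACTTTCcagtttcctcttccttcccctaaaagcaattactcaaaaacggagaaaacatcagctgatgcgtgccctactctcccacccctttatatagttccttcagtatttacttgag
It held 2 matches. The element lay in 11 of 19 matched interferon promoters (57.9%), in 4 of 5 of those whose genes rose, and in 3.07% of all promoters.

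Other signaling and stress lists moved less or in both directions. Their counts stand beside the 8.18% of all genes that rose and the 10.5% that fell. In the SRF and immediate early list, SRF itself rose by 2.06 from a low level (-1.93, -1.89 and -2.10 against -3.87, -5.0 and -3.25) and its coactivator MRTFA by 0.88, while EGR3, ELK4, SPRY4 and KLF4 fell by 0.80, 0.79, 0.61 and 0.60. Another ELK4 probe stood at -0.15 and was not called. Of 16 heat shock genes 4 rose (25.0%) and 2 fell (12.5%). HSP90AB1, the constitutive cytosolic HSP90, read 4.24, 4.39 and 4.22 against 2.89, 1.99 and 3.24, a rise of 1.58, and HSPA8 rose by 1.30, BAG3 by 0.91 and DNAJA1 by 0.75. HSF1, the transcription factor of the list, fell by 1.02, with its other probes at -0.58 and 0.10 and not called, and CRYAB fell by 0.88. Among 24 genes of tubulins and microtubule-associated proteins, a class the study asked about, 4 rose (16.7%) and 2 fell (8.33%). CKAP5, a microtubule polymerase, rose by 0.80, TUBG2 (gamma tubulin) by 0.77, TUBA1A by 0.74 and MAP1B by 0.73. MAP1S, a microtubule-associated protein that binds RASSF1A, read 3.40, 3.51 and 3.38 against 4.84, 5.15 and 4.30, a fall of 1.33 (SE 0.17, adjusted p = 0.000125, limma), and MAP4 fell by 0.88 with its other probes between -0.77 and 0.37. Of the Hippo pathway, to which RASSF proteins bind through the MST kinases, 1 of 19 genes was called, MOB1B, which fell by 1.62 at its brightest probe with others at 0.45 and -0.82. In the endoplasmic reticulum and amino acid stress list DDIT3 rose by 0.84 and PDIA4 by 0.61, and VLDLR fell by 0.84 with another probe at 0.16. Among NF-kappaB targets CXCL2 fell by 1.02, with another probe at -0.40 and not called, and TRAF1 fell by 0.69. In the hypoxia list 1 of 24 was called, INSIG2, with a rise of 0.66 and another probe at 0.12, and 0 of 13 Wnt targets were called.

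**Figure D5:**
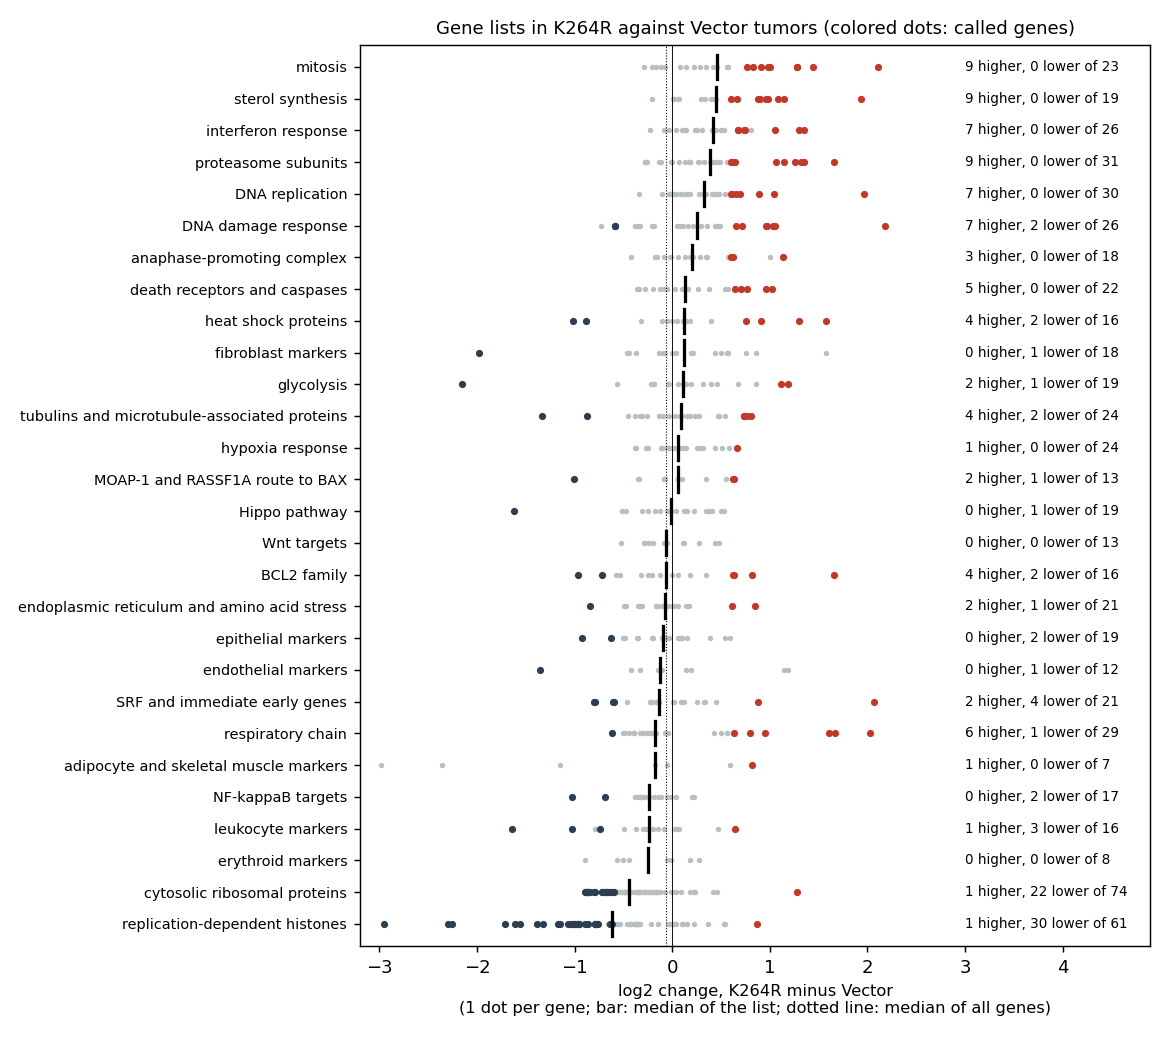
Log2 change (K264R minus Vector) of each gene of the lists, with 1 dot for each gene, called genes in color, a bar at the median of each list and a dotted line at the median of all genes (-0.06). The sterol, mitosis and proteasome medians lie between 0.39 and 0.46, and the histone median lies at -0.62.

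Marker genes of cell types were read in both groups. Of 20 epithelial genes CDH17 did not pass the background filter. The other 19, including EPCAM and the keratins KRT8, KRT18 and KRT19, gave signal well above background in each of the 6 tumors. This was also so for 28361 of all 34127 probes, 15 of 16 leukocyte genes and 8 of 8 erythroid genes. Signal above background thus cannot identify the cell type here. Of the 19, CDHR5 fell by 0.92 and CLDN3 by 0.63, or 10.5% of the list where 10.5% of all genes fell. The summed level of the list (in units of the signal at the 75th percentile) was 291 to 304 in the K264R tumors and 350 to 421 in the vector tumors. Because tumors were measured in bulk, fewer cells of a type and less RNA per cell cannot be told apart. Host cells are murine, and how far their RNA binds human probes is unknown here. Of 16 leukocyte genes 3 fell (TYROBP by 1.65, SPI1 by 1.03 and C1QC by 0.74) and 1 rose (C1QA by 0.65), with summed levels of 29.8 to 33.2 against 34.7 to 41.7. The falls were 18.8% and the rise 6.25% of the list, against 10.5% and 8.18% of all genes. Of 18 fibroblast genes COL5A1 fell by 1.98, although another probe stood at 1.54, and the summed levels overlapped (23.7 to 41.5 against 25.7 to 49.8). Of 12 endothelial genes PLVAP fell by 1.35 (4.68 to 6.44 against 5.11 to 5.43). Of 8 erythroid genes 0 were called (11.8 to 14.8 against 15.4 to 17.9). Of 7 adipocyte and muscle genes PLIN1 was called higher, but it was not well above background in any vector tumor, where it gives a bound of at least 1.15-fold, and its direction turned after normexp correction. The summed levels of that list were 0.43 to 0.92 against 0.45 to 14.7. The part of cell composition in the changes above was not tested.

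Set directly against wild type MOAP-1, K264R tumors differed in 1 of 24625 genes (0.00406%). It was the transcript AK131316, which read -5.95, -5.97 and -5.93 with K264R and -5.07, -4.62 and -4.93 with wild type MOAP-1, a difference of -1.08 (adjusted p = 0.0104, limma), and -5.70, -5.41 and -5.47 with vector. At an unadjusted p below 0.05 and a difference of at least 1.5-fold, 485 genes passed (1.97%). Against K278R, 54 genes were higher and 96 lower in K264R, and 5.33% of genes passed at an unadjusted p below 0.05 and at least 1.5-fold. Besides the sterol genes, the mitotic genes AURKA (0.69), BUB1 (0.66) and CCNA2 (0.64) were higher in K264R than in K278R, and ACKR5 (-1.96), ALDH1L2 (-1.59) and H4C12 (-0.84) were lower. Against vector, 2126 genes rose and 1738 fell with wild type MOAP-1, 1628 rose and 863 fell with K278R, and 0 were called with RASSF1A. The counts share the vector arrays and are given side by side only.

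Signals varied less among the K264R arrays than among the vector arrays. The groups lay on different slides and the K264R arrays were brighter, so similarity of tumors and precision of arrays cannot be told apart. The median SD over 3 tumors was 0.117 with K264R and 0.143 with vector over all genes, and 0.123 against 0.213 over the called genes, where the SD was smaller with K264R in 71.8% (58.7% of all genes). Among the vector tumors, replicate 2 lay farthest from the K264R tumors in 63.4% of the rises and 56.0% of the falls. Where a called gene had further probes, 61.4% of those 932 probes moved in the same direction, 199 were called in that direction and 57 were called in the opposite one, so the calls describe single probes.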

How the data were processed

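Total RNA from the tumors was labelled with Cy3 and hybridized to Agilent whole human genome arrays of 1 color. The authors deposited the scanner output of each array, a processed signal intensity per spot (background subtracted), and a table of log2 values of the same arrays, in which the array scaling and a baseline shift were already applied. The file headers name Feature Extraction 10.5.1.1, while the submitters' processing notes name Agilent Feature Extraction 9.1. Here, control spots and outlier spots were left out, the spots of a probe were averaged, and log2 intensity minus the 75th percentile of the array was tested with limma 3.58.1 (R 4.3.3) in 1 fit over the 15 arrays of 5 constructs, with 10 residual degrees of freedom. Adjusted p-values are Benjamini-Hochberg values over all 30035 probes kept. Scanner files carry no read depth, so the number of arrays limits the precision. Gene names came from RefSeq accessions, and 25422 of 34127 probes (74.5%) were named. Genes named in the text were MOAP1 and RASSF1, the 12 largest rises and falls, up to 4 called members of each list (the 2 largest rises and falls, or the 2 brightest members) and all genes of the BAX route. Other called list members were named after their values were seen. The members and lists were chosen with earlier results of these data known. Replicate numbers are shared between constructs, but same-numbered tumors did not deviate together (correlations of their deviations -0.19, 0.07 and 0.02), so no block was used. Upstream sequences were RefSeq promoters with the first start site listed for a gene. Probe sequences were not used here. Some members of the lists are counted but not reported here by name.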

Additional observations from a re-analysis of the deposited data

Results flagged for a closer look

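The change from vector differed between K264R and wild type MOAP-1 tumors in 1 gene, and between K264R and K278R tumors in 150 genes, by the test of the difference itself (limma, adjusted p below 0.05 and at least 1.5-fold). Among the genes described, the difference of K264R from K278R was 1.70 for HMGCS1, 1.12 for INSIG1, -1.96 for ACKR5, -1.59 for ALDH1L2 and -0.84 for H4C12 on the log2 scale. HMGCS1 and INSIG1 had higher signal in all 3 K264R tumors than in all 3 K278R tumors, and were called in 9 and 10 of 10 alternative analyses. ACKR5 was called in 4, ALDH1L2 in 3 and H4C12 in 4 of those 10. The K278R and K264R arrays were on different slides, so slide and construct cannot be told apart here either.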

How the results depend on the processing

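Over the alternative analyses other than those that left out 1 array, the genes called between K264R and vector numbered 4260 to 6719 and MOAP1 was 0.51 to 0.60, with these exceptions. Normexp background correction of all spots called 819 genes (208 higher, 611 lower), with a median shift of -0.30 over all probes and MOAP1 at 0.36. The same correction without the few spots of extreme local background on K264R replicate 2 and vector replicates 2 and 3 (trimmed normexp) gave 6719 genes (953 higher, 5766 lower; median shift -0.27). Quantile normalization gave 2168 higher and 2092 lower, and the log2 table of the authors 2348 and 2227. The t-test of the methods called 4554 genes, and 3399 after adjustment. The replicate block, which pairs tumors by number, called 4667 genes and kept MOAP1 at 0.55. Leaving out single arrays gave 3831 genes (without vector replicate 2) to 5270 (without vector replicate 3), with MOAP1 from 0.43 to 0.63, past 1.5-fold in the log2 table of the authors (0.60) and without K264R replicate 1 or vector replicate 1 or 3. Against MOAP-1, quantile normalization and trimmed normexp each called 0 genes, and leaving out single arrays gave 0 to 30 (30 without MOAP-1 replicate 1). Against K278R, trimmed normexp called 1003, slide as a random block 703 and the replicate block 80, and leaving out single arrays gave 6 (without K264R replicate 1) to 1298 (without K278R replicate 3), with 49 and 13 without K264R replicates 2 and 3 and 8 and 74 without K278R replicates 1 and 2. Directions turned for RASSF1 (-0.021 without K264R replicate 1 and -0.022 without vector replicate 2, over a leave-one-out range up to 0.12), RIPK1 (0.0031 without K264R replicate 3, range from -0.15), FZR1 (-0.021 with array weights), RASSF6 (0.038 by quantile) and CD44 (0.20 by quantile, 0.069 and 0.022 by normexp with all and trimmed spots, 0.049 without vector replicate 3, range from -0.15), none of which was called. By normexp with all spots, SMIM13 was -0.018, MTM1 -0.46, VPS53 -0.62, TRAPPC6B -0.38, RBMX2 -0.025, APAF1 -0.20, NHEJ1 -0.052 and PLIN1 -0.93, and with trimmed spots MTM1 was -0.10, VPS53 -0.32, TRAPPC6B -0.094 and PLIN1 -0.74. Of the 87 named genes called, 59 lost their call or turned under normexp with all spots, 16 with trimmed spots, 9 by quantile, 22 by the adjusted t-test and 3 to 14 without single arrays. BAX, BAK1, CDC23, CLDN3, CRYAB, DDIT3, EGR3, ENO2, IFIT3, INSIG2, MRE11, MSH3, PDIA4, RPS3, TRAF1, VLDLR, C1QA and PLIN1 lost their call without at least 1 of the 6 arrays. The causes were not tested.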

Other observations

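Small noncoding RNAs were taken as those annotated as small nucleolar RNA, small nuclear RNA or the RNA of ribonuclease P or MRP. Of these 21, 12 fell and 0 rose at an adjusted p below 0.05 and 1.5-fold, where 10.5% of all genes fell. The group was put together after the values were seen, so it has no test of its own. The other 9 were not called, with SNORA53 at 0.02 and SNORD116-19 at 0.05. Besides SNORD3B-1, RPPH1, the RNA of ribonuclease P, fell by 2.77 (adjusted p = 2.1e-05, limma), and SNORA28 and SNORA73A fell by 2.66 and 2.23. RN7SK, which holds back transcription elongation, fell by 2.13, RMRP, the RNA of the related ribonuclease, by 1.34 and RNU12, of the minor spliceosome, by 1.54. The same 12 stood below vector with wild type MOAP-1 and with K278R, where RPPH1 was at -1.74 and -1.78. With RASSF1A it was at -0.38, against the same vector arrays.

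By class of gene, protein-coding genes were near even, with 1648 higher and 1430 lower of 16641 and a median of -0.02. Features with no symbol had 305 higher and 1005 lower of 6848 (median -0.16), and long noncoding RNAs 23 higher and 89 lower of 671. Over chromosomes with at least 100 genes, the share that rose ran from 4.64% on chromosome 19 to 11.8% on chromosomes 4 and 18, and the share that fell from 4.82% on chromosome 18 to 11.9% on chromosome 20.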
